A study of Mus musculus with 12 samples.

Results

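The transcription factor NRF2, encoded by *Nfe2l2*, and 9 of its best known target genes were followed in the livers of mice that lack YAP. The members were *Nfe2l2*, *Nqo1*, *Gclc*, *Gclm*, *Txnrd1*, *Srxn1*, *Hmox1*, *Gsr*, *G6pdx* and *Slc7a11*, chosen by name as textbook genes of the antioxidant response. All 10 were found among the 41743 genes of the tables, and 9 of the 10 were expressed highly enough to be tested. *Slc7a11* never reached 1 TPM, the level required in at least 3 livers of a comparison. TPM, is each gene's share of a library's transcripts corrected for gene length.

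RNA was sequenced from whole livers of 12 adult female mice, analysed at 3 to 4 months of age, in 4 groups of 3. YAP KO mice were C57BL/6, carried the *Foxa3*-Cre transgene and floxed *Yap1* on both alleles, and also held a floxed-stop EYFP reporter at *ROSA*. YAP KO TAZ HET mice were of a mixed C57BL/6-FVB background and carried *Foxa3*-Cre, floxed *Yap1* on both alleles and 1 floxed allele of *Wwtr1*, which encodes TAZ. Each model was compared with female wild-type littermates of its own background, called WT (C57BL/6) and WT (mixed); the exact alleles of these littermates are not given in the sources used here. *Foxa3*-Cre acts in the early foregut endoderm, from which hepatocytes and bile duct cells arise. The paper mentions evidence, not shown, that this Cre line may also affect the developing kidney, which comes from mesoderm. Whether it acted in blood vessel, stellate or immune cells of the liver was not tested here. The design asks whether loss of YAP, alone or with partial loss of TAZ, changed gene expression in the adult liver.

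NRF2 is controlled mainly as a protein. KEAP1 holds it for ubiquitination by a CUL3 and RBX1 ligase, and it is degraded until electrophiles or oxidants modify KEAP1. Stabilised NRF2 pairs with a small MAF protein and binds antioxidant response elements, whereas BACH1 competes for the same elements. In the liver its targets make and recycle glutathione and thioredoxin, supply NADPH, reduce quinones, break down heme, and conjugate and export foreign compounds and bile constituents.

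The labels were checked against the targeted genes. *Yap1* stood at 28.2 to 30.5 TPM in WT (C57BL/6) and 1.67 to 3.72 TPM in YAP KO livers, while WT (mixed) livers held 31.0 to 33.2 TPM and those of YAP KO TAZ HET mice 8.63 to 11.5 TPM. *Wwtr1* was not lower in YAP KO TAZ HET livers, at 11.5 to 14.1 TPM against 7.73 to 8.38 TPM in WT (mixed), and was likewise at 13.3 to 16.7 TPM in YAP KO against 6.26 to 6.83 TPM in WT (C57BL/6). Hepatocyte markers dominated every library, with 8 genes summing to 74300 to 116000 TPM, but the sum was lower in the knockout livers. It was 101000 to 116000 TPM in WT (C57BL/6) and 77500 to 86600 TPM in YAP KO. In WT (mixed) it was 91200 to 116000 TPM and in YAP KO TAZ HET 74300 to 90500 TPM. Most of this sum was *Alb*, with means of 78600 and 60100 TPM in WT (C57BL/6) and YAP KO, and 75400 and 61500 TPM in the other model. Mean *Ttr*, *Serpina1a* and *Cyp2e1* were also lower in both models, whereas mean *Apoa1*, *Apob* and *Hnf4a* were higher and *Tat* differed in direction. Marker sums of several other cells were higher in the knockout livers: 12 macrophage and monocyte genes summed to 267 to 547 TPM over both WT groups and 1140 to 1630 TPM over both knockout groups, and 6 Kupffer cell genes to 177 to 378 and 472 to 931 TPM. In the same order, 7 stellate and fibroblast genes summed to 116 to 156 and 292 to 436 TPM, and 7 biliary genes to 36.7 to 66.9 and 110 to 759 TPM. Sums of 6 endothelial genes overlapped, at 69.7 to 93.1 and 61.9 to 101 TPM, as did those of 7 red blood cell genes. Because whole liver was sequenced, a change in the number of cells of a type and a change in RNA per cell cannot be told apart.

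In both models the same 6 of the 9 tested members rose, namely *Srxn1*, *Nqo1*, *Hmox1*, *G6pdx*, *Gsr* and *Txnrd1*, and no member fell. The glutathione synthesis genes *Gclc* and *Gclm* and *Nfe2l2* itself did not pass the test in either model. The test was limma on log2(scaled TPM + 1) across all genes adjusted by Benjamini-Hochberg, with calls at an adjusted p under 0.05. Across all 11704 genes tested in YAP KO, 18.8% were called higher and 18% lower, and across the 11741 tested in YAP KO TAZ HET 19.2% were higher and 19% lower. The tested members had a median log2 fold change of 0.71 for YAP KO and 0.52 for YAP KO TAZ HET, against -0.04 over all tested genes in both. In raw TPM, every YAP KO liver was above every WT (C57BL/6) liver for 9 of the 9 tested members, a pattern that 47.5% of all tested genes showed. The same held for 8 of the 9 in YAP KO TAZ HET, where it was seen in 44.4% of all tested genes. For each member whose groups did not overlap, the exact two-sided permutation test gave p = 0.1, the smallest value that 3 mice against 3 allow.

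**Figure D1:**
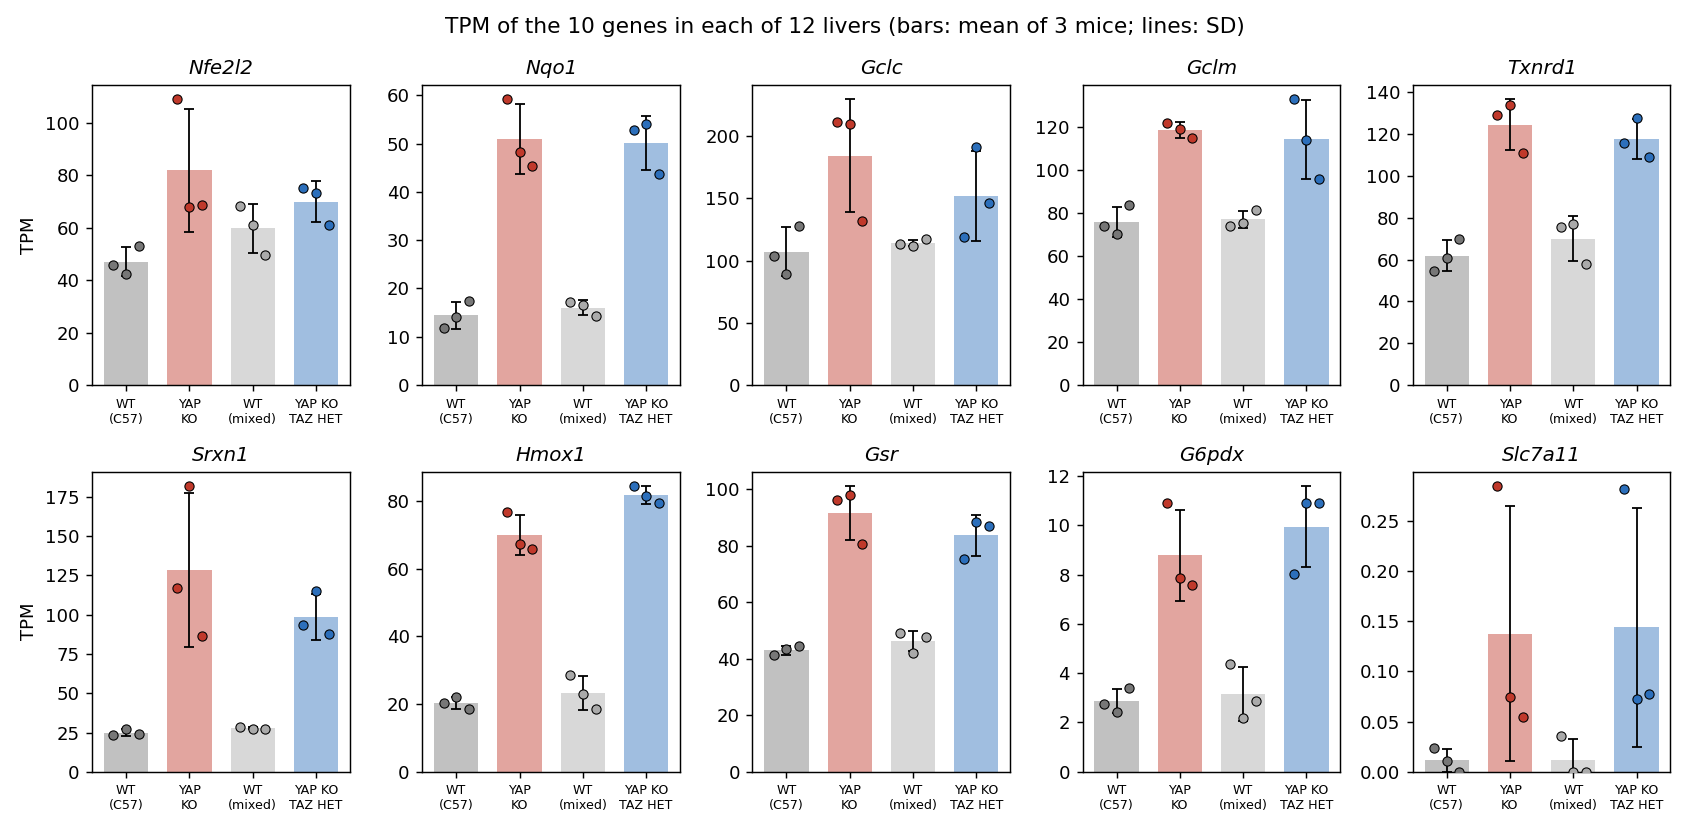
Expression of the 10 genes in TPM (vertical axis, from 0, a separate scale for each gene) in the 12 livers; each point is a mouse, bars are means of 3 mice and lines are SD. The knockout points lie above those of their own WT group in every panel except *Nfe2l2* in YAP KO TAZ HET, where 61.0 TPM lies below the highest WT (mixed) liver at 68.3 TPM.

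*Nfe2l2* (chr2:75675513-75704641, minus strand, GRCm38) encodes NRF2. Its level was 42.2, 45.9 and 53.1 TPM in WT (C57BL/6) and 68.0, 68.6 and 109 TPM in YAP KO. In WT (mixed) it was 49.7, 61.1 and 68.3 TPM, and in YAP KO TAZ HET 61.0, 73.4 and 75.3 TPM. The YAP KO group stood clear of its controls, with mouse LM74 highest, while the YAP KO TAZ HET group overlapped its controls. The log2 fold change was 0.40 (SE 0.162, adjusted p = 0.089) in YAP KO and -0.09 (SE 0.119, adjusted p = 0.592) in YAP KO TAZ HET. Without scaling between libraries the YAP KO value was 0.76 (adjusted p = 0.0123), and the YAP KO TAZ HET value turned positive, at 0.23 (adjusted p = 0.223).

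Scaling matters for these genes because the knockout libraries gave higher TPM for most genes. When TPM was compared without scaling, the median log2 fold change of all tested genes was 0.28 for YAP KO and 0.24 for YAP KO TAZ HET, and 84% and 82.2% of called genes were called higher. The share was 51.1% in YAP KO with the trimmed mean scaling used here. The values below are therefore changes relative to the bulk of genes, and ratios of raw TPM are larger.

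Glutathione is made from glutamate and cysteine by glutamate-cysteine ligase, whose catalytic subunit is encoded by *Gclc* and whose modifier subunit by *Gclm*. *Gclc* (chr9:77754535-77794485, plus strand) was at 89.2, 104 and 128 TPM in WT (C57BL/6) and at 132, 210 and 211 TPM in YAP KO. It was at 112, 113 and 117 TPM in WT (mixed) whereas the YAP KO TAZ HET livers held 119, 146 and 191 TPM. The groups did not overlap in raw TPM, but the lowest knockout liver lay just above the highest control in both models. Its log2 fold change was 0.41 (SE 0.203, adjusted p = 0.155) in YAP KO and 0.07 (SE 0.183, adjusted p = 0.804) in YAP KO TAZ HET. Mouse LM191 held the lowest YAP KO value, and without it the YAP KO change was 0.61 (adjusted p = 0.0423); without LM250, the highest of its group, the YAP KO TAZ HET change turned to -0.13.

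*Gclm* (chr3:122245557-122270732, plus strand) varied less. It was at 70.3, 73.9 and 83.8 TPM in WT (C57BL/6) and 115, 119 and 122 TPM in YAP KO. The 3 WT (mixed) livers held 74.2, 75.3 and 81.6 TPM and the 3 YAP KO TAZ HET livers 96.1, 114 and 133 TPM. Both knockout groups were well above their controls in raw TPM, with means 1.56 and 1.48 times higher. Relative to the bulk of genes the log2 fold changes were 0.28 (SE 0.107, adjusted p = 0.0722) and 0.23 (SE 0.123, adjusted p = 0.17). *Gclm* was called higher in both models without scaling, at 0.64 (adjusted p = 0.00118) and 0.55 (adjusted p = 0.00892), and with quantile normalization, at 0.47 (adjusted p = 0.00765) and 0.43 (adjusted p = 0.0302).

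*Slc7a11* (chr3:49892526-50443614, minus strand) encodes the exchanger that brings cystine into the cell for glutathione synthesis. It was close to absent in all 12 livers. It was listed at 0, 0.0108 and 0.0232 TPM in WT (C57BL/6), 0.0541, 0.0747 and 0.284 TPM in YAP KO, 0, 0 and 0.036 TPM in WT (mixed), and 0.0727, 0.0776 and 0.281 TPM in YAP KO TAZ HET. Every knockout liver was above every control, although the read depth behind these values is unknown. Entered in the test without a minimum level, its log2 fold change came to 0.14 for YAP KO and 0.15 for YAP KO TAZ HET (adjusted p = 0.201 and 0.155).

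Oxidised glutathione, thioredoxin and peroxiredoxins are returned to working form by reductases. *Gsr* (chr8:33652523-33698163, plus strand), glutathione reductase, was at 41.3, 43.6 and 44.4 TPM in WT (C57BL/6) and 80.6, 96.3 and 98.0 TPM in YAP KO. It was at 42.2, 47.6 and 49.1 TPM in WT (mixed) and 75.5, 87.0 and 88.6 TPM in YAP KO TAZ HET. The 4 groups formed a low and a high set with a wide gap between them. *Gsr* rose by a log2 fold change of 0.71 (SE 0.107, adjusted p = 0.00165) and 0.52 (SE 0.123, adjusted p = 0.0114). Leaving out LM250 or LM251 ended the call in YAP KO TAZ HET, at 0.46 in each case (adjusted p = 0.0523 and 0.0546).

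*Txnrd1* (chr10:82833951-82897712, plus strand) encodes cytosolic thioredoxin reductase. It was measured at 54.8, 61.0 and 69.8 TPM in WT (C57BL/6) and 111, 129 and 134 TPM in YAP KO. The mixed background gave 57.7, 75.5 and 76.9 TPM in WT and 109, 116 and 128 TPM in YAP KO TAZ HET. Neither knockout group overlapped its controls. The log2 fold change was 0.65 (SE 0.125, adjusted p = 0.00503) in YAP KO and 0.43 (SE 0.126, adjusted p = 0.0275) in YAP KO TAZ HET. This second call was the least secure of the set: it was lost without LM226 (0.45, adjusted p = 0.0561), LM230 (0.33, adjusted p = 0.0767), LM250 (0.35, adjusted p = 0.115) or LM251 (0.46, adjusted p = 0.0716).

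*Srxn1* (chr2:152105516-152111376, plus strand) encodes sulfiredoxin, which repairs overoxidised peroxiredoxins. It was at 23.2, 24.1 and 27.2 TPM in WT (C57BL/6) and 86.5, 117 and 182 TPM in YAP KO. It was at 27.2, 27.5 and 28.7 TPM in WT (mixed) and 87.7, 93.2 and 115 TPM in YAP KO TAZ HET. The control livers lay within a few TPM of each other, and even the lowest knockout liver was far above them. Means were 5.17 times higher in YAP KO and 3.55 times higher in YAP KO TAZ HET. The log2 fold changes were 1.91 (SE 0.248, adjusted p = 0.000802) and 1.47 (SE 0.124, adjusted p = 8.75e-05).

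The highest *Srxn1* value came from mouse LM189. The 10 immediate-early genes examined, which rise within minutes of handling or tissue stress, were also highest in that liver, summing to 3450 TPM against 1850 TPM in LM191 and 447 TPM in LM74. Their sums were 285 to 398 TPM in YAP KO TAZ HET and 137 to 231 TPM over both WT groups. The *Srxn1* change was 1.59 (adjusted p = 0.000328) without LM189. With both LM189 and LM191 left out, a choice made after seeing the data that leaves LM74 as the only YAP KO mouse and assumes that it varies like the controls, *Srxn1* was at 1.73 (adjusted p = 0.00233). In that fit 6 members were again called higher, where 8.85% of all tested genes were, with *Nfe2l2* in (0.73, adjusted p = 0.0416) and *Txnrd1* out (0.59, adjusted p = 0.059), while *Nqo1* (1.51), *Hmox1* (1.41), *G6pdx* (1.21) and *Gsr* (0.67) stayed past the threshold.

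NADPH for these reductases comes in part from the pentose phosphate pathway, which glucose-6-phosphate dehydrogenase, encoded by *G6pdx*, opens. *G6pdx* (chrX:74409483-74429194, minus strand) was the lowest expressed of the tested members, at 2.44, 2.75 and 3.41 TPM in WT (C57BL/6) and 7.58, 7.86 and 10.9 TPM in YAP KO. It was at 2.20, 2.89 and 4.36 TPM in WT (mixed) and 8.04, 10.9 and 10.9 TPM in YAP KO TAZ HET. Means were about as far apart in both models, at 3.06 and 3.15 times. The log2 fold changes were 1.03 (SE 0.154, adjusted p = 0.00155) and 1.15 (SE 0.207, adjusted p = 0.00327).

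The *G6pdx* gene overlaps *Ikbkg*, a subunit gene of the IKK complex, on the opposite strand, and whether reads were counted by strand is not given in the sources used here. *Ikbkg* itself was at 13.6 to 16.8 TPM in the 6 WT livers and 25.5 to 32.7 TPM in the 6 knockout livers, with log2 fold changes of 0.58 (adjusted p = 0.00655) and 0.65 (adjusted p = 0.00174). How far reads of one gene were counted to the other was not tested. *G6pd2*, an autosomal copy of *G6pdx*, was listed at 0 in every liver. The next NADPH-forming enzyme of the pathway, 6-phosphogluconate dehydrogenase (*Pgd*), was also called higher in both models, with log2 fold changes of 1.52 (adjusted p = 4.3e-05) and 1.31 (adjusted p = 0.00102) and no overlap between knockout and WT livers. *Pgd* was singled out after its values were seen.

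*Nqo1* (chr8:107388225-107403206, minus strand) encodes a quinone reductase and is the gene most often used as a readout of NRF2. It was at 11.9, 14.1 and 17.4 TPM in WT (C57BL/6) and 45.4, 48.3 and 59.2 TPM in YAP KO. It was at 14.3, 16.6 and 17.2 TPM in WT (mixed) and 43.7, 52.8 and 54.0 TPM in YAP KO TAZ HET. Both knockout groups occupied nearly the same range. *Nqo1* rose by a log2 fold change of 1.41 (SE 0.142, adjusted p = 0.000226) and 1.27 (SE 0.109, adjusted p = 9.15e-05). This call held under each of the 14 alternative settings tried in each model, with changes from 1.31 to 1.75 and from 1.20 to 1.58.

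*Hmox1* (chr8:75093621-75100589, plus strand) encodes heme oxygenase 1, which breaks heme down to biliverdin, iron and carbon monoxide. It was at 18.5, 20.4 and 22 TPM in WT (C57BL/6) and 65.8, 67.2 and 76.7 TPM in YAP KO. It was at 18.5, 23.0 and 28.5 TPM in WT (mixed) and 79.3, 81.4 and 84.4 TPM in YAP KO TAZ HET. The knockout livers were again set far apart from their controls, and *Hmox1* gave the smallest adjusted p among the members in YAP KO. Its log2 fold changes were 1.38 (SE 0.099, adjusted p = 4.48e-05) and 1.47 (SE 0.129, adjusted p = 0.000102).

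*Hmox1* is also strongly expressed in macrophages, which clear red blood cells. All 12 macrophage and monocyte markers were called higher in both models, as were 5 of 6 Kupffer cell markers, with median log2 fold changes of 1.37 and 1.33 for the first list and 0.80 and 1.11 for the second. None of these markers was at 0 in all livers. *Itgam*, *Ccr2*, *Trem2* and *Gpnmb* had means under 1 TPM in both WT groups and needed the knockout livers to meet the limit for testing. Their calls were therefore largely set by that filter, and 8 of the 12 macrophage and monocyte markers could also be tested between the WT groups. Hepatocyte markers were called lower for 4 of 8 genes in each model. Of all tested genes 18.8% were called higher and 18% lower in YAP KO, and 19.2% and 19% in YAP KO TAZ HET. The part of these cells in the *Hmox1* level was not tested.

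**Figure D2:**
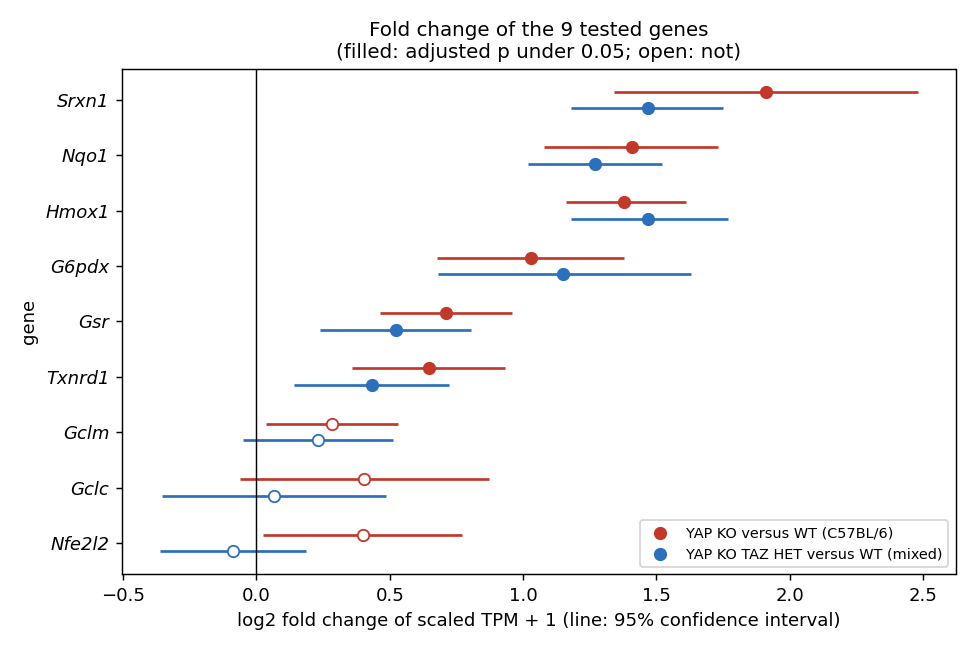
Log2 fold change of scaled TPM + 1 (horizontal axis) with 95% confidence interval (lines) for the 9 tested genes, YAP KO in red and YAP KO TAZ HET in blue, n = 3 mice per group; filled points have an adjusted p under 0.05. *Srxn1*, *Nqo1* and *Hmox1* lie between 1.27 and 1.91, *G6pdx*, *Gsr* and *Txnrd1* between 0.43 and 1.15, and *Gclm*, *Gclc* and *Nfe2l2* are open in both models.

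No difference between the models was called for any member. In the contrast of both changes over 12 livers, 0 of 9 members passed the threshold by limma, each with an adjusted p of 0.999, and 1, *Nfe2l2*, had an unadjusted p under 0.05. Few genes passed this test at all, at 0.0658% of those tested. The *Nfe2l2* change was larger in YAP KO by 0.48 on the log2 scale (95% confidence interval 0.02 to 0.94, unadjusted p = 0.0413). The widest interval for a target gene was that of *Srxn1*, 0.44 higher in YAP KO with limits of -0.22 and 1.09. For *Nqo1* the difference was 0.13 (limits -0.26 and 0.52), for *Hmox1* -0.09 (limits -0.44 and 0.25) and for *Gsr* 0.18 (limits -0.17 and 0.53). These limits are not adjusted for the number of genes tested, so larger differences than these could also go uncalled. The models also differed in background, in floxed mouse line and in remaining *Yap1*, at 1.67 to 3.72 TPM in YAP KO and 8.63 to 11.5 TPM in YAP KO TAZ HET. In this contrast these cannot be told apart from partial loss of TAZ.

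No difference between the WT groups was called in these genes. None of the 9 members was called between WT (mixed) and WT (C57BL/6), with no unadjusted p under 0.05, while 0.216% of all tested genes were called. *Nfe2l2* was the member furthest apart, 0.27 higher in WT (mixed) on the log2 scale (SE 0.133, adjusted p = 0.889). Log2 differences of the 8 others lay between -0.04 and 0.12.

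**Figure D3:**
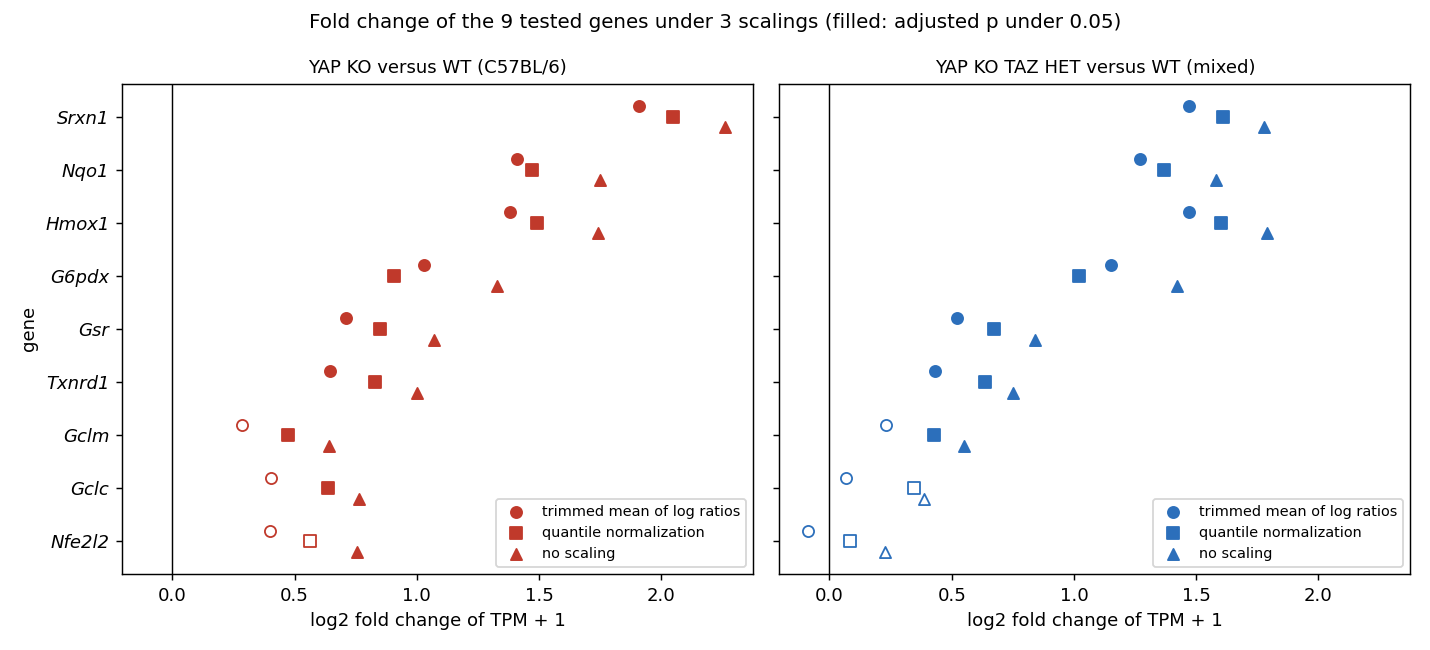
Log2 fold change of the 9 tested genes (horizontal axis) under trimmed mean scaling (circles), quantile normalization (squares) and no scaling (triangles), YAP KO left and YAP KO TAZ HET right; filled symbols have an adjusted p under 0.05. *Srxn1*, *Nqo1*, *Hmox1*, *G6pdx*, *Gsr* and *Txnrd1* are filled under all 3, whereas the calls of *Gclm*, of *Gclc* and *Nfe2l2* in YAP KO, and the sign of *Nfe2l2* in YAP KO TAZ HET, change with the scaling.

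The promoters of the members were read for the core letters of the antioxidant response element. RefSeq windows on GRCm38.p6, from 250 bases before to 50 bases after the start, were found for 7 of the 10 members, namely *Nfe2l2*, *Srxn1*, *Slc7a11*, *Gclm*, *Nqo1*, *Txnrd1* with 3 starts and *G6pdx*. *Gclc*, *Hmox1* and *Gsr* were not among them. The letters searched were TGACNNNGC and TGAGNNNGC on either strand, where N is any base. One or the other was in 27.8% of all 32851 windows (12.4% and 17.6% for each form), so a single match is common. Of the 9 windows of the members, 6 held a match, and those without were the window of *Nqo1* and the other 2 of *Txnrd1*. *Srxn1*, the member with the largest change, held 3 matches, and 0.63% of all windows held at least 3. The 200 bases before its start are shown for the pair that lies there, and shorter stretches for the single matches of the other members. Each is 5′ to 3′ in the direction of the gene, with the match in capitals, which on the opposite strand reads as the reverse complement.
Srxn1, chr2:152105324-152105523, plus strand: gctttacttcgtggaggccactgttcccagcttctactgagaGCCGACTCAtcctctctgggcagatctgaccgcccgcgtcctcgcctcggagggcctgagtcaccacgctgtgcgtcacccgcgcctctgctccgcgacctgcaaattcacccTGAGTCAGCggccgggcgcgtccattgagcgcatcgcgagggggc
Gclm, chr3:122245398-122245456, plus strand: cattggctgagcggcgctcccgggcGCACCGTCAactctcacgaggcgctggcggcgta
Txnrd1, chr10:82859089-82859147, plus strand: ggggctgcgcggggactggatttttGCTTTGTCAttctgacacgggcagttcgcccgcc
G6pdx, chrX:74428904-74428962, minus strand: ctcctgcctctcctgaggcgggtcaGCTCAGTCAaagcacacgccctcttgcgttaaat
Slc7a11, chr3:50443677-50443735, minus strand: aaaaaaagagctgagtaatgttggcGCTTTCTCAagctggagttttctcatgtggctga
Nfe2l2, chr2:75704870-75704913, minus strand: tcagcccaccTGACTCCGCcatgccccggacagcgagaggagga
The *Srxn1* match nearer the start, from base -45 to -37, also contains the letters TGAGTCA, which are those of an AP-1 site read on the opposite strand as TGACTCA, and these were in 5.2% of all windows. The same letters TGAGTCA also stand farther from the start in the stretch shown, outside both matches and not in capitals. The third *Srxn1* match lay past the start, from base 28 to 36. Members with a match included both genes called higher (*Srxn1*, *Txnrd1*, *G6pdx*) and genes that were not (*Gclm*, *Nfe2l2*). Among tested members with a window only *Nqo1* held no match, and *Gclc*, *Hmox1* and *Gsr* had no window. These windows therefore cannot show whether the letters separate called from uncalled members.

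Of 11 genes for proteins that act on NRF2, all tested, 2 were called higher in both models, *Mafk* and *Sqstm1*, a share near the 18.8% and 19.2% of all tested genes. *Mafk*, which encodes a small MAF partner of NRF2, was at 10.1 to 12 TPM in WT (C57BL/6) and 22.6 to 39.6 TPM in YAP KO, a log2 fold change of 0.94 (adjusted p = 0.0108). In the other model it was at 9.81 to 10.9 and 22 to 23.6 TPM, a log2 fold change of 0.76 (adjusted p = 0.00112). *Sqstm1* encodes p62, an autophagy receptor that binds KEAP1 and is itself an NRF2 target. It went from 195 to 231 TPM in WT (C57BL/6) to 534 to 659 TPM in YAP KO, and from 216 to 242 TPM in WT (mixed) to 488 to 557 TPM in YAP KO TAZ HET. Its log2 fold changes were 1.09 (adjusted p = 0.00097) and 0.88 (adjusted p = 0.000335).

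The repressors moved less and depended on the scaling. *Keap1* was called lower in YAP KO at -0.38 (adjusted p = 0.0401), but its raw TPM overlapped fully, 24.4 to 34.1 against 25.4 to 32.5, and without scaling the change was -0.03 (adjusted p = 0.899). In YAP KO TAZ HET it was at -0.15 (adjusted p = 0.325), which turned to 0.16 without scaling. *Bach1* was called lower in both models, at -0.55 (adjusted p = 0.0158) and -0.57 (adjusted p = 0.0375), and kept that sign without scaling at -0.21 and -0.27, short of the threshold (adjusted p = 0.213 and 0.329). Its raw TPM overlapped the controls in both models, and of the YAP KO TAZ HET livers LM225 was above every WT (mixed) liver, which held 16.0 to 17.1 TPM, while LM250 and LM251 were below at 11.4 and 11.1 TPM. *Rbx1* (-0.41, adjusted p = 0.0116) and *Nfe2l1* (-0.34, adjusted p = 0.0245), a relative of NRF2, were called lower in YAP KO, and *Cul3* (-0.37, adjusted p = 0.0198) in YAP KO TAZ HET. Without scaling none of these 3 passed, with *Nfe2l1* at 0.01, *Rbx1* at -0.06 and *Cul3* at -0.06. *Mafg*, *Maff*, *Dpp3* and *Crebbp* did not pass in either model, and *Maff* had the widest spread, at 21.4 ± 25.8 TPM (SD, n = 3) in YAP KO.

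A wider list of 80 genes, put together as NRF2 targets, was not uniform. No source was recorded for each gene, so some may not be NRF2 targets in liver. In YAP KO 34 of 79 tested genes rose and 21 fell, and in YAP KO TAZ HET 23 of 78 rose and 20 fell, with median log2 fold changes of 0.30 and 0.12 against -0.04 over all tested genes. Of all tested genes 18.8% were higher and 18% lower in the first comparison, and 19.2% and 19% in the second. Without scaling the list had 47 higher and 10 lower, and 38 higher and 13 lower, but there 37.5% and 34.8% of all tested genes were called higher and 7.13% and 7.55% lower. With quantile normalization it had 40 higher and 12 lower, and 32 higher and 14 lower. In that setting 18.1% and 18.7% of all tested genes were called higher, and 2105 of 11704 and 2174 of 11741 lower. The number of falls in the list thus depended on the scaling. No gene of the list passed the test of a difference between the models. Among the rises, *Cbr3* and *Abcc1* in both models and *Gpx2* in YAP KO had WT means under 1 TPM. These genes needed the knockout livers to meet the limit for testing.

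Genes of phase 2 conjugation and reduction, such as glutathione S-transferases and aldo-keto reductases, were called higher more often than lower. Of 27 tested, 17 rose and 4 fell in YAP KO and 14 rose and 6 fell in YAP KO TAZ HET, with medians of 0.76 and 0.63, against 18.8% and 19.2% of all tested genes called higher. How the groups of the list compare with each other was not tested. *Gstm3* went from 81.2 ± 15.0 to 4050 ± 140 TPM in YAP KO and, in the other model, from 102 ± 34.2 to 3570 ± 390 TPM (SD, n = 3), log2 fold changes of 5.28 (adjusted p = 6e-07) and 4.86 (adjusted p = 5.12e-06). *Gsta1* changed by 5.88 (adjusted p = 2.61e-06) and 4.84 (adjusted p = 0.000337) from 3.76 ± 1.17 and 7.01 ± 4.84 TPM in the WT groups. *Gsta2* was among the 5 largest rises in YAP KO, at 2.86 (adjusted p = 0.000148), and *Akr1b7*, an aldo-keto reductase, in YAP KO TAZ HET, at 2.98 (adjusted p = 0.000319). Each was also called higher in the other model, *Gsta2* at 1.6 (adjusted p = 0.00411) and *Akr1b7* at 2.6 (adjusted p = 4.27e-05). The transferase genes are families of near-identical copies, and how reads were split among copies is uncertain.

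Other phase 2 genes fell. *Gsta3*, an abundant transferase gene, fell from 1420 ± 17.6 to 905 ± 105 TPM in YAP KO and from 1530 ± 141 to 880 ± 58.2 TPM in the other model (SD, n = 3), with log2 fold changes of -1.01 (adjusted p = 0.000841) and -1.12 (adjusted p = 0.00024). *Gstt1* was among the 5 largest falls in YAP KO (-0.81, adjusted p = 0.00785) and was also called lower in YAP KO TAZ HET (-0.75, adjusted p = 0.00139). *Gstm1*, at 1600 ± 203 and 1830 ± 138 TPM in the WT groups more abundant than *Gsta3*, rose by 1.54 (adjusted p = 0.000101) and 1.22 (adjusted p = 0.000257), and was singled out after its values were seen. *Cyp2a5*, a cytochrome P450 gene, was among the 5 largest falls in YAP KO TAZ HET (-1.32, adjusted p = 0.0354), although its raw TPM overlapped the controls. In YAP KO *Cyp2a5* was at -0.99 (adjusted p = 0.0501).

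In the glutathione and thioredoxin cycle beyond the members, 5 of 17 tested genes rose and 8 fell in YAP KO, where 18.8% of all tested genes were higher and 18% lower. For YAP KO TAZ HET 3 of 16 rose and 4 fell, near the shares of all tested genes, 19.2% and 19%. The YAP KO counts depended on the scaling. Without scaling 8 rose and 3 fell, where 37.5% of all tested genes were higher and 7.13% lower. With quantile normalization 6 rose and 4 fell, where 18.1% of all tested genes were higher and 2105 of 11704 lower. The median of the group in YAP KO was -0.14 with trimmed mean scaling, 0.22 without scaling and 0.18 with quantile normalization. The glutathione peroxidase *Gpx3* rose in both models, from 5.96 ± 2.11 to 95.6 ± 22.1 TPM and from 3.99 ± 0.80 to 67.6 ± 20 TPM, log2 fold changes of 3.48 (adjusted p = 3.78e-05) and 3.47 (adjusted p = 1.16e-05). *Gpx2*, a peroxidase of epithelia, rose in YAP KO by 2.94 (adjusted p = 6.13e-05), from 0.106 to 0.696 TPM in the controls to 8.82 to 12.6 TPM. It met the limit for testing in YAP KO only through the knockout livers, so its call, counted among the 5 rises, was largely set by that filter. In YAP KO TAZ HET *Gpx2* was high in mouse LM225, at 7.29 TPM, and at 0.336 and 1.07 TPM in the others, and was below the limit for testing. *Glrx*, glutaredoxin, was among the 5 largest falls in YAP KO, at -0.93 (adjusted p = 0.0015), and was also called lower in YAP KO TAZ HET, at -0.66 (adjusted p = 0.0023).

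The smaller groups held few calls, to be read against the 18% to 19.2% of all tested genes called in each direction. For NADPH supply 1 of 6 rose and 1 fell in YAP KO, and 1 rose and 2 fell in YAP KO TAZ HET. For heme and iron handling 2 of 8 rose and 2 fell, and 1 rose and 1 fell. For export 3 of 5 rose and 1 fell, and 2 rose and 1 fell. Among the remaining targets 6 of 16 rose and 5 fell in YAP KO, and 2 rose and 6 fell in YAP KO TAZ HET. *Adh7*, an alcohol dehydrogenase, was the largest called fall of the whole list in both models, at -1.59 (adjusted p = 0.00157) and -1.35 (adjusted p = 0.00097). *Sod1*, the cytosolic superoxide dismutase of these targets, was among the 5 largest falls in YAP KO, at -0.84 (adjusted p = 0.00133), and *Cat*, catalase, in YAP KO TAZ HET, at -1.02 (adjusted p = 0.000731). Each was also called lower in the other model, *Sod1* at -0.78 (adjusted p = 0.00362) and *Cat* at -0.73 (adjusted p = 0.00301). *Ptgr1*, prostaglandin reductase 1, rose by 1.84 (adjusted p = 0.000159) and *Aldh1a1* fell by 1.27 on the log2 scale (adjusted p = 0.000435) in YAP KO TAZ HET. In YAP KO *Ptgr1* was also called higher, at 1.95 (adjusted p = 0.000402), while *Aldh1a1* was at -0.41 (adjusted p = 0.0614).

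**Figure D4:**
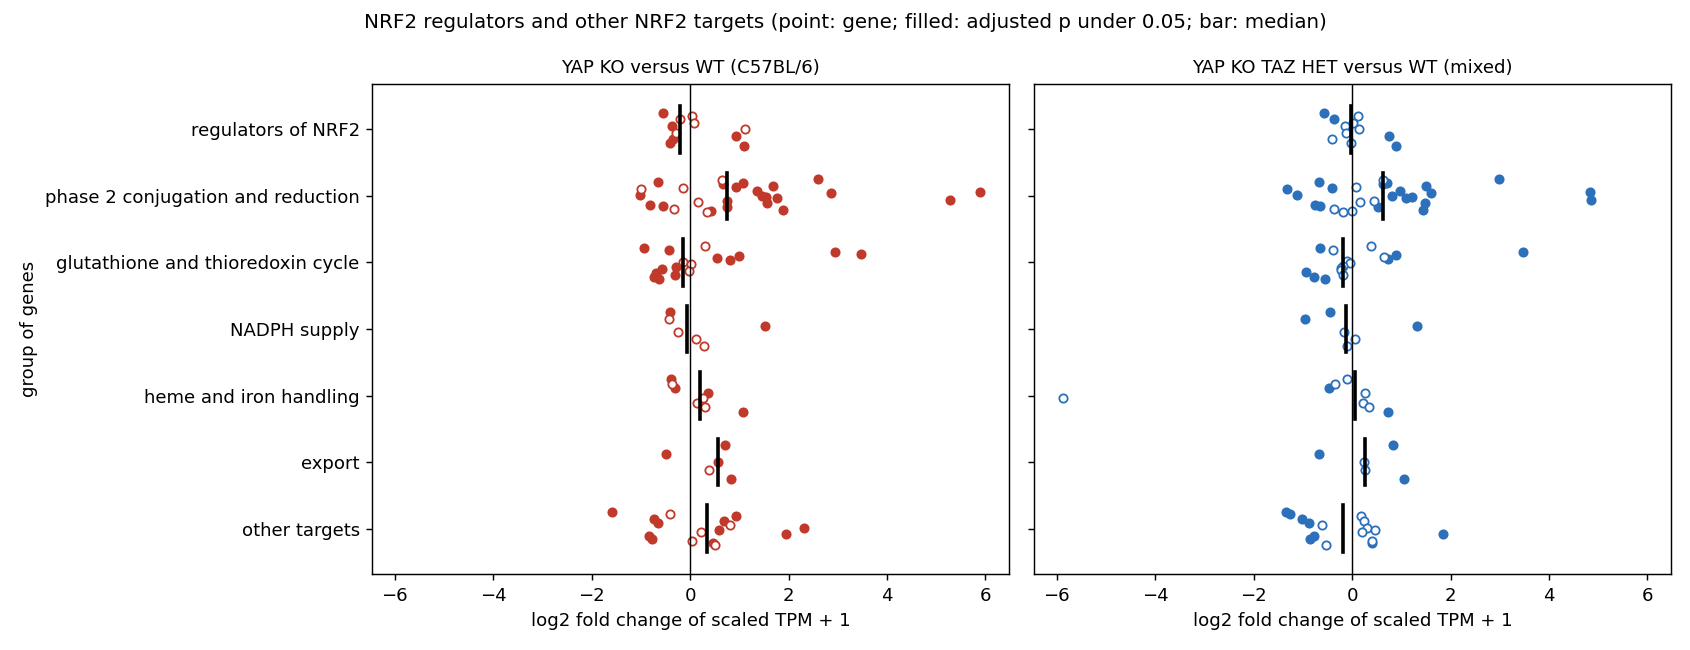
Log2 fold change of scaled TPM + 1 (horizontal axis) for regulators of NRF2 and the wider target list in its groups (vertical axis), YAP KO left and YAP KO TAZ HET right; each point is a gene, filled where the adjusted p is under 0.05, and black bars are medians. Phase 2 genes have medians of 0.76 and 0.63 and reach 5.88; the open point far to the left in YAP KO TAZ HET is *Ftl1*, at -5.87.

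Genes of the ATF4 stress response, which share targets with NRF2, were read beside the members. Of 10 listed, 7 were tested, and 3 rose in each model, *Atf3*, *Asns* and *Ddit4*, where 18.8% and 19.2% of all tested genes were called higher. *Atf3*, also an immediate-early gene, rose by 3.91 (adjusted p = 0.00291) and 1.51 (adjusted p = 0.000833), and *Asns*, asparagine synthetase, by 2.33 (adjusted p = 5.12e-05) and 1.54 (adjusted p = 0.00741). With means of 0.285 TPM in WT (C57BL/6) and 0.343 TPM in WT (mixed), *Asns* met the limit for testing only through the knockout livers. *Atf4* itself was at -0.43 (adjusted p = 0.0902) in YAP KO and was called lower in YAP KO TAZ HET at -0.46 (adjusted p = 0.0117), a call lost without scaling (-0.14, adjusted p = 0.245). *Chac1*, which degrades glutathione, was at 0.59 (adjusted p = 0.266) and 0.05 (adjusted p = 0.928).

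The pattern of *Nqo1* over the 12 livers was compared with that of 8481 genes with a mean of at least 5 TPM. The genes most like it were *Il17rb* (Pearson r = 0.986), *Cap1* (0.985), *Gstm3* (0.985), *Otud7b* (0.985) and *Ifi27l2b* (0.984), on the log2 scale. Among the members *Hmox1* ranked 126th (r = 0.962) and *Srxn1* 264th (r = 0.944), followed by *Txnrd1* (0.934), *G6pdx* (0.927) and *Gsr* (0.920). *Gclm* (0.756), *Gclc* (0.472) and *Nfe2l2* (0.462) were far less alike. The 12 points fall into knockout and WT clusters and come from the same libraries, so any gene that separates those clusters has a high r, and the values are a description only.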

How the data were processed

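The members and gene lists were chosen with earlier results of these data known. The authors sequenced liver RNA on an Illumina NovaSeq, aligned reads to GRCm38.p6 and assigned them to genes in CLC Genomics Workbench, and deposited TPM for each mouse in 2 tables. Their own edgeR comparisons (group means, fold changes, p-values) were not used. TPM keeps no read depth, so counting precision is unknown, and the spread between mice is the only error.

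TPM was scaled by an unweighted trimmed mean of log ratios (30% of ratios and 5% of levels trimmed at each end), 1 was added and log2 taken. For genes with 1 TPM or more in at least 3 livers, limma 3.58.1 (R 4.3.3; eBayes with trend, Benjamini-Hochberg, threshold 0.05) gave the tests. Each model was fitted with its own WT group, and the difference between models over 12 livers. Fold changes on this scale understate those of low genes. The steps were tested on simulated data. Exact permutation tests used SciPy 1.17.1.

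Named genes were all members, 11 regulators, the 5 largest called rises and falls of the wider list, *Atf4*, *Atf3*, *Chac1* and *Asns*, and the 5 genes most like *Nqo1*. Alternatives were another pseudocount, filter, scaling, shrinkage, threshold and fit, and leaving out each mouse.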

Additional observations from a re-analysis of the deposited data

Results flagged for a closer look

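*Ugt2b35*, a UDP-glucuronosyltransferase gene of the wider target list, went in opposite directions in the models. Its log2 fold change was 0.35 in YAP KO (adjusted p = 0.0503) and -0.19 in YAP KO TAZ HET (adjusted p = 0.225), a difference of 0.531 on the log2 scale. The test of that difference gave an adjusted p of 0.896. In raw TPM it was at 75.4 to 88.0 in WT (C57BL/6), 114 to 157 in YAP KO, 85.7 to 111 in WT (mixed) and 97.5 to 116 in YAP KO TAZ HET. The value in the second model turned positive without scaling (0.13, adjusted p = 0.425) and with quantile normalization (0.03, adjusted p = 0.862).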

How the results depend on the processing

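With 6 members called in each model, the count in YAP KO was 6 to 9 and in YAP KO TAZ HET 4 to 7 over the alternatives listed in the methods. It was 9 and 7 without scaling, where 37.5% and 34.8% of all tested genes were called higher, 8 and 7 with quantile normalization (18.1% and 18.7%), and 6 and 4 at a threshold of 0.01 (11.8% and 12.1%). Leaving out each mouse gave 6 to 7 and 4 to 6. Of 252 refits of single members in these comparisons, 235 kept direction and side of the threshold, 6 lost the call, 8 gained it and 3 changed sign: *Nfe2l2* in YAP KO TAZ HET without scaling (0.229) and with quantile normalization (0.0821), and *Gclc* when LM250 was left out (range over mice left out -0.126 to 0.261). The cause was not tested.

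For all genes, a threshold of 0.01 gave 2493 calls in place of 4299 in YAP KO and 2642 in place of 4486 in YAP KO TAZ HET, and leaving out mice gave 2833 (without LM251) to 4069 in the latter. Leaving out LM189 and LM191, a setting added later, gave 2258. The 8 genes with a difference between the models became 3 with a pseudocount of 0.1, 2 without a filter, 2 at 0.01 and 3 to 20 with a mouse left out, 20 without LM74. The 24 genes between the WT groups became 15 without a filter, 11 at 0.01 and 8 to 28 with a mouse left out. No member was called in either contrast.

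Small, uncalled values changed sign with a mouse left out. In the difference between the models the ranges were -0.0453 to 0.119 for *Gclm*, -0.297 to 0.0417 for *G6pdx* and -0.204 to 0.0296 for *Hmox1*. Between the WT groups they were -0.00918 to 0.23 for *Nqo1*, -0.0971 to 0.186 for *Gclc*, -0.137 to 0.184 for *G6pdx*, -0.00662 to 0.0853 for *Gsr* and -0.116 to 0.0348 for *Gclm*, which was at 0.0214 without scaling. The WT mice were littermates of the knockouts, but no label ties a mouse to its litter, so no paired analysis was possible.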

Other observations

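*Ftl1*, the ferritin light chain gene of the wider list, was at 7900 to 8160 TPM in WT (C57BL/6), 11500 to 13600 TPM in YAP KO and 3870 to 4300 TPM in WT (mixed), but at 10.1, 5620 and 9.66 TPM in the YAP KO TAZ HET mice LM225, LM250 and LM251. The log2 fold change there was -5.87 (SE 2.11, adjusted p = 0.0577). Ferritin light chain has near-identical copies in the genome, and how their reads were assigned was not tested. *Fth1*, the heavy chain, was higher in both models in raw TPM, at 2420 ± 81.2 against 1460 ± 61.7 and 2360 ± 152 against 1570 ± 55.2 (SD, n = 3), with log2 fold changes of 0.36 (adjusted p = 0.0414) and 0.27 (adjusted p = 0.126).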
